A study of Homo sapiens with 2 samples.

Results

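The RNAs described here are 7 structural noncoding RNAs of the nucleus and cytoplasm, RN7SK, RN7SL1, RN7SL2, RMRP, RPPH1, MALAT1 and NEAT1, among 55773 annotated gene symbols in 2 RNA-seq libraries of NCI-H2030, an established human lung adenocarcinoma cell line. One library came from cells treated with miR-494-3p AS and the other from cells treated with SC, with no dose, time or genotype given, and neither abbreviation is spelled out in the labels. The libraries are called AS and SC here. Each group was 1 library, so there was no test, p-value or spread between replicates, and each difference below holds for this pair of libraries. The title of the series names miR-494-3p and the protein SET, so the comparison addresses how transcript levels differ with a treatment named for this microRNA. The 7 RNAs were chosen by symbol, with their levels and ratios in these libraries already known, so their values are given as a description.

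Several of these RNAs are the core of a ribonucleoprotein particle. The 7SK RNA, encoded by RN7SK, holds the transcription elongation factor P-TEFb inactive together with HEXIM proteins. The 7SL RNA, encoded by RN7SL1 and RN7SL2, is the scaffold of the signal recognition particle, which brings ribosomes that make secreted proteins to the endoplasmic reticulum. RPPH1 encodes the RNA of RNase P, which trims the 5′ end of transfer RNA precursors, and RMRP the RNA of RNase MRP, which acts in ribosomal RNA processing. RNA polymerase III makes these RNAs, whereas RNA polymerase II makes MALAT1, a long RNA of nuclear speckles, and NEAT1, the long RNA on which paraspeckles are built.

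The first 100 bases of the annotated 7SK transcript (chr6:52995621-52995720 on GRCh38, plus strand) are shown because they hold the hairpin known to bind HEXIM proteins. This transcript has 328 bases, whereas the deposited gene row spans 331. Sequences are those of the transcripts of GENCODE release 29. Capitals mark the motif GATC, written as DNA.
RN7SK: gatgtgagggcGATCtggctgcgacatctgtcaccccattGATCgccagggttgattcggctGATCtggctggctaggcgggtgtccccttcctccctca
The motif was found 3 times on the transcript strand, at positions 12, 41 and 63 counted from the start of this annotated transcript. It is short and palindromic, and 22.4% of 203677 annotated transcripts hold it at least once in their first 100 bases.

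A stretch near the 3′ end of MALAT1 (bases 8245 to 8364 of an annotated transcript of 8708 bases, chr11:65506006-65506125 on GRCh38) and the end of NEAT1 (bases 22624 to 22743 of its long transcript, chr11:65445421-65445540) are shown because both RNAs are known to end in a triple helix in place of an ordinary poly(A) tail. The mature end of MALAT1 is known to lie before the end of its annotated transcript. Both genes lie on the plus strand. Capitals mark TTTTGCTTT, a part of the U-rich strand, and AAAAGCAAA, a part of the A-rich tract.
MALAT1: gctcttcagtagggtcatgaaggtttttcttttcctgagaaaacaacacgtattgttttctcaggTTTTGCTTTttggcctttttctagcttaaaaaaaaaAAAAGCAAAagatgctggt
NEAT1: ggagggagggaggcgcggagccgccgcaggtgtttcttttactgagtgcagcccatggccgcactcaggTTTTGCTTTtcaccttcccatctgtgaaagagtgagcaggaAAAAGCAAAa
The motifs were searched in that order on the transcript strand, and stand 27 bases apart in MALAT1 and 32 bases apart in NEAT1. Of 21132085 overlapping windows of 120 bases in long intergenic and antisense transcripts, 265 (0.00125%) held both without overlap, and they fell in 4 genes, MALAT1, NEAT1, AC018362.1 and AC046168.2. These matches describe the sequences and are not evidence on the levels below.

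Gene positions from here on are those of the deposited tables, which do not match GRCh38. Levels are the deposited TPM values of annotated genes, which are scaled for transcript length, and ratios are log2 values of AS over SC after 1 TPM was added to both. Genes with an average of 1 TPM or more across the libraries count as measured, and as higher or lower if they differed at least 2-fold on that scale. Of 13669 measured genes, 2251 were higher in AS, or 16.5%, and 297 were lower, or 2.17%. In the coverage column, the mean depth of reads over a row, with 0.1 added, 2076 genes were higher (15.2%) and 405 lower (2.96%). Over all measured genes the log2 ratio had a median of 0.28 in TPM, 0.20 in coverage and 0.17 in FPKM. Coverage per unit of FPKM, a measure of aligned bases, was 3.54 in AS and 3.62 in SC, 14177 and 12816 genes reached 1 TPM in AS and SC, and mitochondrial transcripts held 16.2% and 14.6% of annotated TPM. The keratins KRT8 (345 TPM in AS, 486 TPM in SC) and KRT18 (479 TPM in AS, 558 TPM in SC) were high in both, as in epithelial cells, whereas KRT19 and the surfactant gene SFTPC were listed at 0 in both libraries and CDH1 and the lung lineage factor NKX2-1 stayed below 0.1 TPM in both. Of 8 blood, endothelial and fibroblast markers with a row, the leukocyte genes PTPRC and CD3E were listed at 0 in both and 2 were measured, the collagen genes COL1A1, with 15.8 TPM in AS and 26.3 TPM in SC, and COL3A1, with 7.23 TPM in AS and 4.32 TPM in SC. The part of these cell types in the results was not tested.

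Only the 7SL genes were abundant in these libraries. The 7 RNAs together held 608 TPM in AS and 368 TPM in SC, which is 0.0628% and 0.0378% of annotated TPM in AS and SC, a ratio of 1.65-fold. RN7SL1 and RN7SL2 made up 86.9% of that sum in AS and 94.6% in SC. In TPM of the gene rows the order of levels in AS was RN7SL2, RN7SL1, RN7SK, NEAT1, MALAT1, RPPH1 and RMRP, and in SC the last 2 places were exchanged. The places of NEAT1 and MALAT1 turn round only if NEAT1 is taken as its long assembled locus, described below. Without replicates it cannot be said which neighbours in this order differ beyond the spread between samples. In cells and tissues all 7 are known as highly transcribed, but RMRP and RPPH1 were barely detected here. How ribosomal RNA was removed or messenger RNA selected is not given in the sources used here. In bulk RNA, fewer cells with an RNA and fewer molecules per cell cannot be told apart.

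**Figure D1:**
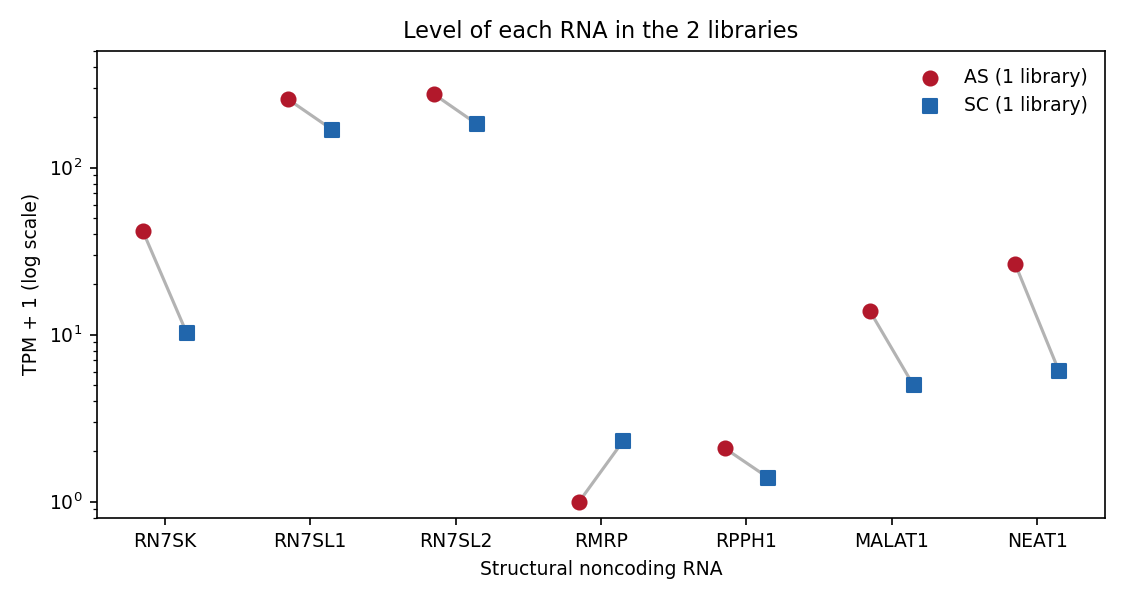
Level of each of the 7 RNAs, as TPM plus 1 on a log axis, in the AS library (red circles) and the SC library (blue squares), with a line joining the values of 1 RNA. AS lies above SC for 6 RNAs and below it for RMRP, which is listed at 0 TPM in AS and at 1.29 TPM in SC.

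Of the 7 RNAs, 5 were measured, and 3 of these, RN7SK, MALAT1 and NEAT1, were higher in AS, against 16.5% of all measured genes. None was lower, against 2.17%. The same 3 were higher in coverage, against 15.2% of all measured genes, and none was lower, against 2.96%. Because the RNAs were chosen with these ratios known, nothing is read from the share. RMRP and RPPH1 had means of 0.647 and 0.742 TPM and were not measured.

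RN7SK (ENSG00000202198, chromosome 6, 52860418 to 52860748, plus strand) stood at 40.4 TPM in AS and 9.25 TPM in SC. This was 4.37-fold higher in AS, a log2 ratio of 2.01, and the gene ranked 3348 among all symbols in AS and 6579 in SC. The log2 ratio was 1.98 in coverage, which was 67.3 in AS and 17.0 in SC, and 1.82 in FPKM. The difference was thus of similar size in each deposited column. The annotated copies of 7SK, 298 rows that are mostly pseudogenes, summed to 10.3 TPM in AS and 8.22 TPM in SC. RN7SK itself held 79.6% of the family's TPM in AS and 52.9% in SC, and with all copies added the ratio was 2.90-fold. How reads that match several copies were divided is not known here. The neighbour GSTA4, a glutathione transferase gene beside it on the other strand, had 12.3 TPM in AS and 12.4 TPM in SC.

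RN7SL1 (ENSG00000258486, chromosome 14, 50053297 to 50053596, plus strand) stood at 254 TPM in AS and 168 TPM in SC. RN7SL2 (ENSG00000265150, chromosome 14, 50329271 to 50329567, minus strand) stood at 274 TPM in AS and 180 TPM in SC. Both were 1.52-fold higher in AS, with log2 ratios of 0.60 in TPM and of 0.46 and 0.47 in coverage for RN7SL1 and RN7SL2, short of 2-fold. The level of RN7SL1 was 0.928 of that of RN7SL2 in AS and 0.931 in SC, so the pair kept 1 proportion. RN7SL1 and RN7SL2 are known as near-identical genes, so how reads were divided between them is uncertain, and their sum, 529 TPM in AS and 348 TPM in SC, does not depend on that division. Among 860 rows of 7SL copies the largest were RN7SL5P, which was 1.84-fold higher in AS, and RN7SL4P, with 14.8 TPM in AS and 9.69 TPM in SC. All copies together were 1.62-fold higher in AS, and the family with RN7SL1 and RN7SL2 was 1.53-fold higher. RN7SL1 lies inside the row of RPS29, a ribosomal protein gene on the opposite strand with 1261 TPM in AS and 1325 TPM in SC; whether the counting used the strand is not given in the sources used here. Set against the 7SL pair, 7SK stood at 7.64% of its TPM in AS and at 2.66% in SC, so these RNA polymerase III products did not differ by 1 factor.

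RMRP (ENSG00000269900, chromosome 9, 35657748 to 35658015, minus strand) was listed at 0 TPM in AS and at 1.29 TPM in SC. Its coverage in SC was 2.34, which over the 268 bases of the row is 626 aligned bases. Because a listed 0 can be a failed estimate, no fold is given. RPPH1 (ENSG00000259001, chromosome 14, 20811207 to 20811844, minus strand) had 1.09 TPM in AS and 0.391 TPM in SC, or 606 aligned bases in AS and 239 in SC. On the log2 scale with 1 TPM added its ratio was 0.59, and in coverage it was 1.15. These RNAs thus had opposite directions at levels too low to compare. The row of RPPH1 overlaps that of PARP2, a DNA repair gene on the other strand with 50.7 TPM in AS and 27.4 TPM in SC, by 104 bases.

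MALAT1 (ENSG00000251562, chromosome 11, 65265233 to 65273940, plus strand) had 12.8 TPM in AS and 3.96 TPM in SC, 3.24-fold higher in AS. Its log2 ratio was 1.48 in TPM, 1.33 in coverage, 1.23 in FPKM and 1.73 in the locus assembled over it, which had 15.4 TPM in AS and 3.96 TPM in SC. It passed 2-fold in all 4, but with 5 TPM added in place of 1 its log2 ratio was 0.99. An antisense row inside MALAT1, AP000769.7, was listed at 0 TPM in AS and 1.19 TPM in SC.

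NEAT1 (ENSG00000245532, chromosome 11, 65190245 to 65213011, plus strand) had 25.3 TPM in AS and 5.05 TPM in SC. The ratio of 5.01-fold, or 2.12 on the log2 scale, was the largest in TPM among the 6 RNAs above 0 in both libraries, but coverage gave a smaller one. Coverage was 14.8 in AS and 6.60 in SC, a ratio of 2.24-fold and a log2 ratio of 1.15. Coverage per unit of FPKM was 1.24 for NEAT1 in AS and 2.58 in SC, so the columns are not proportional for this gene and its TPM ratio is not a ratio of reads. NEAT1 is known to have a short transcript and a long one that start at the same place and overlap, and only the long one builds paraspeckles.

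**Figure D2:**
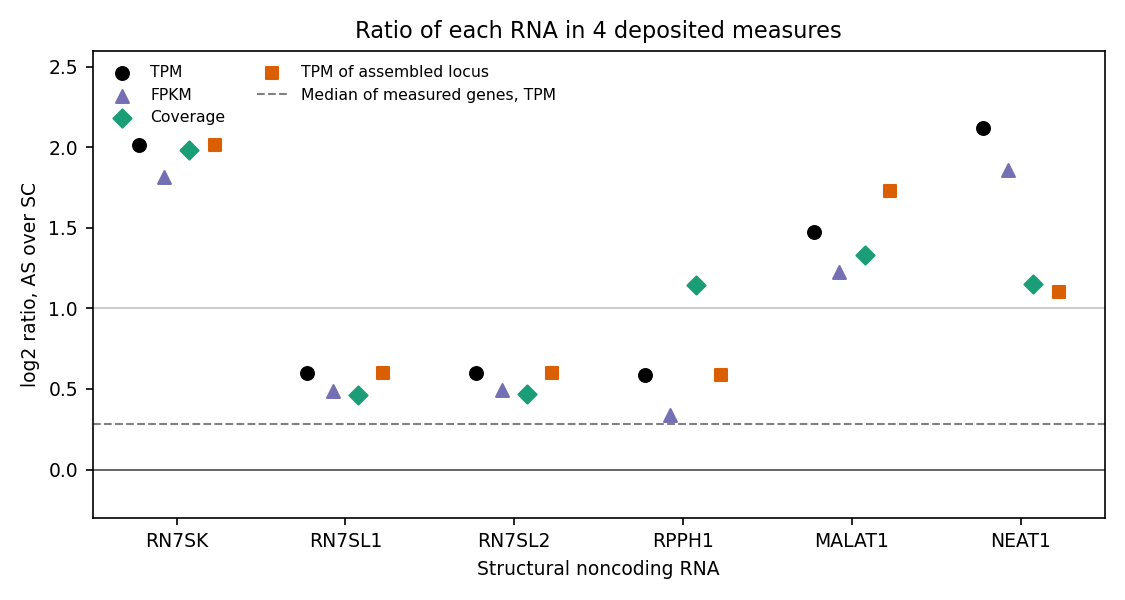
Log2 ratio of AS over SC for the 6 RNAs above 0 TPM in both libraries, from TPM, FPKM, coverage and the TPM of the assembled locus, with the median of measured genes in TPM (0.28, dashed) and 2-fold (grey). The markers of RN7SK lie between 1.82 and 2.01, whereas those of NEAT1 spread between 1.10 and 2.12.

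The loci assembled from the reads list a short and a long span of NEAT1, which overlap in nearly all of the short one, so their values rest on how shared reads were counted. The long locus had a coverage of 14.8 in AS and 6.61 in SC, against 14.8 and 6.60 for the gene row. Its value thus appears to hold the reads of the short span too. A locus of 1988 bases at the 5′ end had 38.8 TPM in AS and 12.1 TPM in SC, 3.21-fold higher in AS. A locus of 22743 bases over the whole gene had 8.87 TPM in AS and 3.60 TPM in SC, 2.46-fold higher in AS. Both spans were higher in AS, but because they share reads these are not separate observations. The TPM of the short one was 4.38 times that of the long one in AS and 3.36 times in SC. Whether the short span is the known short transcript was not tested, so these values are not a proportion of the known transcripts. The sum of both loci was 47.7 TPM in AS and 15.7 TPM in SC, a ratio of 3.03-fold. This sum can hold shared reads in both terms, so it is not a level of the gene. The values of NEAT1 higher in AS thus range from 2.24-fold in coverage to 5.01-fold in the TPM of the gene row.

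**Figure D3:**
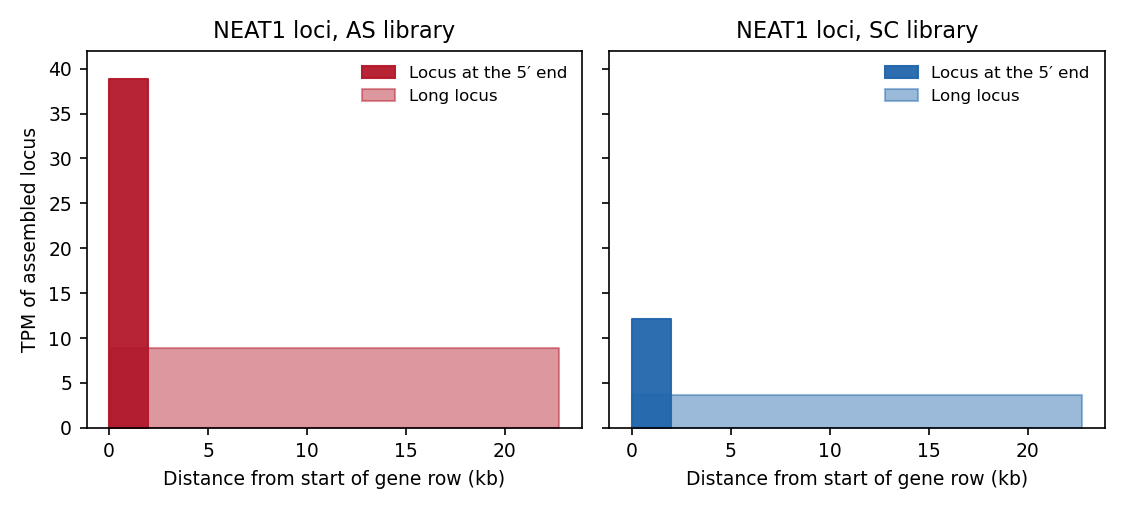
TPM of the loci assembled over NEAT1, drawn to length from the start of the gene row in kilobases, in AS (left) and SC (right). The bar at the 5′ end reaches 38.8 TPM in AS and 12.1 TPM in SC, and the long bar 8.87 TPM in AS and 3.60 TPM in SC.

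The balance of the long RNAs depended on the column. MALAT1 was at 0.506 of the TPM of NEAT1 in AS and at 0.784 in SC. In coverage the proportion was 0.995 in AS and 0.873 in SC. With the assembled locus that overlaps each gene most, the long one for NEAT1, it was 1.74 in AS and 1.10 in SC. The locus at the 5′ end of NEAT1, with 38.8 TPM in AS and 12.1 TPM in SC, is left out of that proportion. It stood above the MALAT1 locus, with 15.4 TPM in AS and 3.96 TPM in SC. The order of MALAT1 and NEAT1 within a library thus rests on the measure. They were nearly level in coverage in AS, and the order turned round only with the long locus of NEAT1.

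The ratio of coding genes near these RNAs in GC content differed with that content. MALAT1 has a GC content of 40.3%, and the 1620 measured coding genes within 2 percentage points of it had a median log2 ratio of 0.86, with 39.9% of them at least 2-fold higher in AS. For NEAT1, at 44.1%, the 1599 nearest coding genes had a median of 0.72, and 30.8% were at least 2-fold higher. RN7SK, at 58.2%, lay among 1469 coding genes with a median of -0.07, of which 2.52% were at least 2-fold higher. RN7SL1 and RN7SL2, at 62.9% and 62.7%, lay among genes with a median of -0.23. The ratio of 7SK was thus 2.01 where genes of like composition had -0.07, and those of the 7SL pair 0.60 where they had -0.23. For MALAT1 it was 1.48 where they had 0.86, and for NEAT1 2.12 where they had 0.72. The part of GC content in these ratios was not tested.

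**Figure D4:**
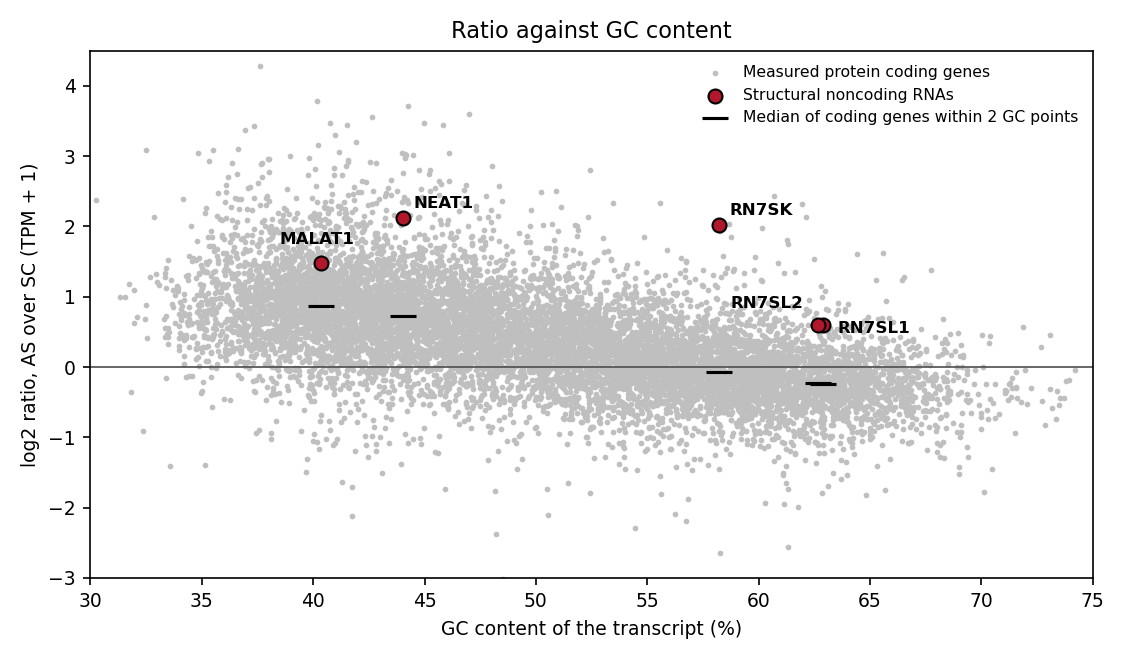
Log2 ratio of TPM, AS over SC, against the GC content of the transcript in percent, for measured protein coding genes (grey) and the 5 measured structural RNAs (red), with black bars for the median of coding genes within 2 percentage points. RN7SK, at 58.2% GC, lies at 2.01 above a bar at -0.07, and MALAT1, at 40.3% GC, at 1.48 above a bar at 0.86.

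The measured gene nearest to each RNA in its levels over the 2 libraries was also looked up. For RN7SK it was AC005618.1, with 40.9 TPM in AS and 9.68 TPM in SC. For MALAT1 it was WDR89, with 13.2 TPM in AS and 4.05 TPM in SC, and for NEAT1 DONSON, with 25.8 TPM in AS and 4.98 TPM in SC. TRIM16L and RPL39P3 were nearest to RN7SL1 and RN7SL2, STEAP1B to RMRP and LA16c-358B7.3 to RPPH1. With 2 values per gene such likeness is easily met.

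The proteins that work with these RNAs or make them were compared next. The lists hold known particle and nuclear body members, the receptor of the signal recognition particle, and the machinery of RNA polymerase III. Of 66 measured genes in these 8 lists, 13 were at least 2-fold higher in AS, against 16.5% of all measured genes, and none was lower. Relative to the median of all measured genes, 8 were higher and 1 was lower. The share of all measured genes past 2-fold on that scale is not given here, so nothing is read from these counts. Among 6 measured genes of 7SK and P-TEFb proteins, 2 were higher and none lower, against 16.5% and 2.17% of all measured genes, with a median log2 ratio of 0.13. LARP7, the La-related protein that holds 7SK, had 8.87 TPM in AS and 2.16 TPM in SC, a log2 ratio of 1.64, but 0.77 in coverage and 0.45 in the locus assembled over it. CCNT1, the cyclin of P-TEFb, had 4.62 TPM in AS and 1.69 TPM in SC (1.06), with 1.74 in coverage. MEPCE, the 7SK capping enzyme, was at 49.0 TPM in AS and 44.0 TPM in SC, and HEXIM2, which inhibits P-TEFb, at 13.6 TPM in AS and 25.3 TPM in SC (-0.84).

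Of the 6 proteins of the signal recognition particle 1 was higher, near the 16.5% of all measured genes, and none lower, and the median log2 ratio was 0.67. SRP9, which binds the Alu domain of 7SL, had 86.4 TPM in AS and 30.6 TPM in SC (1.47). The others named had log2 ratios of 0.96 for SRP72, 0.85 for SRP19 and 0.49 for SRP54, the subunit that binds signal peptides. All 6 had positive ratios, but the median of all measured genes was positive too, at 0.28. The share of all measured genes with a positive ratio is not given here, so nothing is read from this count. The median GC content of the list was 42.2%, and the part of GC content was not tested. The receptor genes SRPRB (0.46) and SRPR (0.10) stayed within 2-fold. Of the 11 proteins of RNase P and RNase MRP none was 2-fold higher or lower, against 16.5% and 2.17% of all measured genes, and the median was 0.39 in TPM and 0.04 in coverage. RPP40 (0.55), POP1 (0.55), RPP30 (0.46) and RPP25L (-0.53) had the largest absolute ratios.

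Of 11 paraspeckle proteins, 4 were higher in AS and none lower, against 16.5% and 2.17% of all measured genes, with a median log2 ratio of 0.72 against 0.28. HNRNPH3 had 74.1 TPM in AS and 26.9 TPM in SC (1.43), and TARDBP, which encodes TDP-43, 81.7 TPM in AS and 30.9 TPM in SC (1.37). PSPC1, a core paraspeckle protein, stood at 22.8 TPM in AS and 8.90 TPM in SC (1.27), and CPSF7, a subunit of the cleavage factor of messenger RNA 3′ ends, at 54.0 TPM in AS and 22.2 TPM in SC (1.24). In coverage 2 of the 11 were higher, near the 15.2% of all measured genes, with PSPC1 just short of 2-fold and CPSF7 at 0.89. Of 8 genes of nuclear speckle proteins and METTL16, which binds the triple helix of MALAT1, 4 were higher and none lower, against 16.5% and 2.17% of all measured genes, and the median was 1.14. It was 0.96 in coverage and 0.86 relative to the median of all measured genes. SRRM1, a splicing coactivator, had 14.9 TPM in AS and 1.94 TPM in SC (2.43), and METTL16 12.3 TPM in AS and 2.98 TPM in SC (1.74). For METTL16 the coverage (0.90) and the assembled locus (0.94) gave ratios short of 2-fold. The splicing factors SRSF3 and SRSF1 followed with 1.37 and 1.35, SRSF1 with 0.81 in its assembled locus. The median GC content was 46.7% for the paraspeckle list and 47.6% for the speckle list. Both medians lie more than 2 percentage points above the 44.1% of NEAT1, but the single genes vary. Of the genes higher in AS, HNRNPH3 (43.3%), TARDBP (40.2%), PSPC1 (45.3%), SRSF3 (39.3%) and SRSF1 (41.2%) lie within 2 points of MALAT1 or NEAT1. CPSF7 (51.4%), SRRM1 (47.8%) and METTL16 (47.7%) do not. No median ratio of coding genes at the median content of these lists is given here. The part of GC content in the list medians was not tested.

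The machinery of RNA polymerase III was compared in lists of subunits and of initiation factors, and nothing is read from the small counts. Of 10 measured subunits 1 was higher, against 16.5% of all measured genes, and none lower, with a median log2 ratio of 0.49. The subunit CRCP had 32.4 TPM in AS and 15.1 TPM in SC (1.05, but 0.81 in coverage). In coverage no subunit was 2-fold higher, against 15.2% of all measured genes. POLR3A, the largest subunit, had 14.0 TPM in AS and 7.56 TPM in SC (0.80). POLR3F and POLR3K had ratios of 0.68 and 0.60, POLR3F with -0.13 in its assembled locus. Of 12 measured initiation factors, with the repressor MAF1 and the La protein, 1 was higher, against 16.5% of all measured genes, and none lower (median 0.39). The gene higher in TPM was SSB, which encodes the La protein that binds new polymerase III transcripts, at 113 TPM in AS and 45.9 TPM in SC (1.28). SNAPC1 (0.98), TBP (0.76) and BDP1 (0.59) came next. In coverage 3 were higher, against 15.2% of all measured genes, among them SSB (1.21) and BDP1 (1.03).

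Other noncoding RNAs were compared in the same way. Of 29 other small structural RNAs with a row, among them the spliceosomal, Y and vault RNAs, 12 were listed at 0 in both libraries and 3 were measured. RNU2-2P, a copy of the U2 RNA gene, had 5.62 TPM in AS and 0.226 TPM in SC (2.43). SNORD118, the U8 RNA of ribosome assembly, had 2.83 TPM in AS and 0.989 TPM in SC (0.94), and RN7SL3 a ratio of 0.56. The assembled loci that overlap RNU2-2P and SNORD118 most on the same strand had ratios of -3.72 and -0.25. Such a locus can be that of a longer gene, so these values are not taken as a second measure of the small RNAs. Of 12 measured other long noncoding RNAs, 5 were higher in AS and none lower, against 16.5% and 2.17% of all measured genes, with a median log2 ratio of 0.84 in TPM and 0.81 in coverage. In coverage 3 were higher, against 15.2% of all measured genes, with GAS5 at 0.87 and CRNDE at 0.91 short of 2-fold. SNHG1, a host of small nucleolar RNAs, had 115 TPM in AS and 24.1 TPM in SC (2.20), and TUG1 34.0 TPM in AS and 9.56 TPM in SC (1.73, but 4.81 in the assembled locus). LINC00657, also known as NORAD, and GAS5 had ratios of 1.27 and 1.24. The mitochondrial ribosomal RNAs MT-RNR2 and MT-RNR1, made by another polymerase, had ratios of 0.32 and -0.01. By gene type, 7.93% of 1148 measured long intergenic and antisense RNAs were at least 2-fold higher in AS, against 17.4% of 10883 coding genes and 31.5% of 111 small nucleolar and Cajal body RNAs. The ratios of MALAT1 and NEAT1 lay above the median of 0.07 of their gene class and inside the whole span of the other long noncoding RNAs, which ran from -0.90 for JPX to 2.20 for SNHG1.

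**Figure D5:**
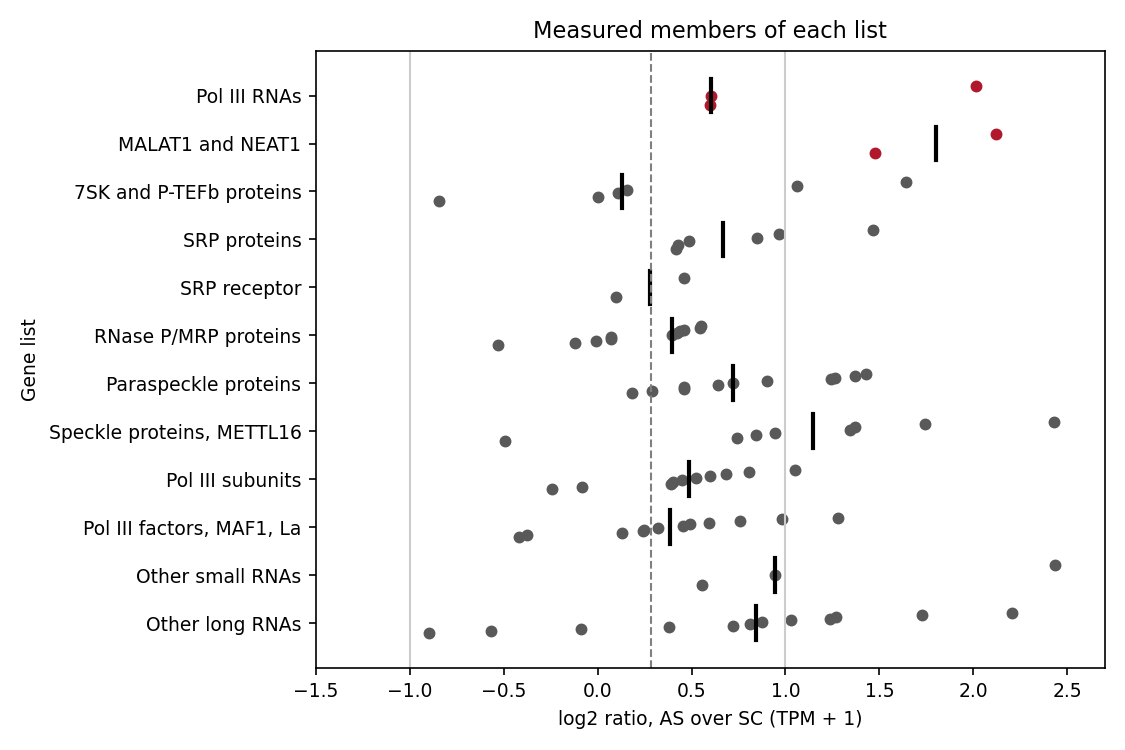
Log2 ratio of TPM, AS over SC, of each measured gene in the lists of structural RNAs (red) and of protein partners, polymerase III machinery and other noncoding RNAs (grey). A black bar marks each list's median, a dashed line the median of all measured genes (0.28) and grey lines 2-fold in both directions. The bar of the 7SK and P-TEFb list lies at 0.13 and that of the speckle list at 1.14.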

How the data were processed

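Total RNA of NCI-H2030 cells was extracted on silica columns and made into directional libraries, per the labels' protocols. For each library the authors deposited a table whose columns, per the file headers, are coverage (a signal), FPKM and TPM. No source used here gives the aligner, the counting program or read numbers. Depth is therefore known only through coverage, and no intervals were computed. The deposited TPM column lists annotated genes (968917 TPM in AS, 973681 TPM in SC) and, on the same scale, loci assembled from the reads; the annotated rows were used. Coverage was 1 constant times FPKM, within 1%, in 52.6% of AS rows and 54.6% of SC rows.

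The submitters' processing notes name GRCh38 and hg38, but the tables' coordinates differ from GENCODE release 29 on GRCh38; they are printed as deposited. GENCODE gave gene types, GC content and sequences. Rows of 1 symbol were summed, and ratios were log2((AS + 1)/(SC + 1)), which understates changes of low levels. Named genes are the 7 RNAs, the 4 measured genes with the largest absolute ratio in each list, and the nearest gene to each RNA; marker genes, copies and neighbours were chosen after their values were seen. The 7 RNAs and the lists were chosen with earlier results of these data known. Alternatives were other pseudocounts, columns, filters and scalings. Some sequences are not reported here. The calculation was tested on simulated data. Python 3.11.15, pandas 2.3.3 and NumPy 2.4.6 were used.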

Additional observations from a re-analysis of the deposited data

How the results depend on the processing

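RN7SK, RN7SL1, RN7SL2 and NEAT1 kept their direction and their side of 2-fold under each alternative run, and MALAT1 under each but a pseudocount of 5, where its log2 ratio was 0.99. The log2 value of RMRP, which rests on the pseudocount because RMRP is listed at 0 in AS, was -1.20 and became -0.33 with a pseudocount of 5, -0.73 in FPKM and -0.96 with its copies added, and in the other direction -3.80 with a pseudocount of 0.1 and -4.61 in coverage. RPPH1 passed 2-fold with a pseudocount of 0.1 (1.28) and in coverage (1.15). With no filter on low levels, 1 of the 7 RNAs, RMRP, and 1 of the other noncoding RNAs, RNU5A-1, were 2-fold lower. Both are listed at 0 in AS, so these calls rest on the pseudocount. The share of all symbols past 2-fold without the filter is not given here, so nothing is read from them. After centring on the median of all genes, 8 genes of the protein lists were higher and 1 lower, and 3 other noncoding RNAs were higher and 1 lower. The share of all measured genes past 2-fold after centring is not given here, so nothing is read from these counts. In the assembled loci 1 other noncoding RNA, RNU2-2P, was lower, but its locus can be that of a longer gene. The share of all measured genes in that setting is not given here either. The 7 RNAs' share of annotated TPM was 0.0749% in AS and 0.0443% in SC without mitochondrial genes, and 0.00534% in AS and 0.00296% in SC as coverage times row length, which counts introns. The log2 proportion of MALAT1 to NEAT1 was -0.0075 in AS and -0.20 in SC in coverage. With the long assembled locus of NEAT1 alone it reversed to 0.80 in AS and 0.14 in SC. In coverage the log2 proportion of RN7SL1 to RN7SL2 was -0.12 in both libraries, that of RN7SK to the 7SL pair -3.70 in AS and -5.23 in SC, and that of RMRP to RPPH1 2.64 in SC. The cause of these shifts was not tested. No paired analysis was possible because each group holds 1 library. Depth limits RMRP and RPPH1 most, and the absence of replicates limits every ratio.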
